A study of Mus musculus with 6 samples.

Results

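The small (40S) subunit of the cytosolic ribosome is built from 18S rRNA and a fixed set of proteins, and the genes of those proteins were followed here in Ribo-seq of mouse pancreatic islets in low and high glucose. Members were the protein-coding rows of the deposited gene table whose name was Rps followed by a number, with an optional a, a1, x or l, together with *Rpsa*, *Rps27rt* and *Fau*, while the ribosomal S6 kinases were left out. This gave 34 genes of 56747 in the table, of which 21969 were protein-coding. The rule also asked for *Rps4l*, but the table gives it as a transcribed processed pseudogene, so it is described beside *Rps4x* and not counted. At least 1 count was found for 33 of the 34, and 32 had enough counts to be tested.

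Islets came from young adult male mice on a C57BL/6J background, with no engineered allele named by the labels or the methods. They recovered overnight in culture and were kept without glucose before glucose was added. The groups were low glucose (2.5 mM for 2 h, 3 libraries) and high glucose (25 mM for 2 h, 3 libraries). The islets of each mouse were divided over both conditions and several mice were pooled for each library. Cycloheximide, which arrests elongating ribosomes, was present at the end of the incubation in both conditions. Ribo-seq counts, for each gene, the mRNA fragments that ribosomes shield from RNase I (footprints), so a count follows both the amount of an mRNA and the number of ribosomes on it. Matched RNA-seq was not analysed here. Islets are a mixture of cells, and in such bulk samples fewer cells of a type and less RNA per cell cannot be told apart.

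The small subunit holds the mRNA and reads its codons. Its head and body enclose the mRNA channel, with an entry side, an exit side and the decoding centre between them. In vertebrates the mRNAs of ribosomal proteins begin with a C followed by a run of pyrimidines, the 5′ terminal oligopyrimidine (5′TOP) motif, through which mTORC1 and LARP1 control their translation together when nutrients change.

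The low-glucose libraries held 9242549 to 12175699 counts and the high-glucose libraries 16322162 to 20692579, so the latter were the deeper ones. Counts were scaled to a common library size with edgeR's TMM factors, as counts per 1000000 (CPM), and tested by its quasi-likelihood test. A gene was called higher or lower at a Benjamini-Hochberg adjusted p under 0.05 over all 13100 genes tested, and each log2 fold change (log2FC) is high over low glucose. With this scaling, higher and lower are relative to the other genes of a library, and absolute amounts of footprints were not measured. As a check of the tissue, the 8 beta cell markers took 14.3% of counts in low glucose and 16.4% in high glucose, with 5 higher and 2 lower, *Mafa* and *Iapp*. The 14 acinar markers, of which *Amy2a5* was at 0, summed to 749 to 822 CPM in low glucose and 323 to 341 CPM in high glucose, and 13 of the 13 tested were lower. The 4 alpha cell markers summed to 58408 to 62164 CPM in low glucose and 46822 to 50417 CPM in high glucose, with 3 of 4 lower. The sums of the 2 delta cell markers (6073 to 6700.4 CPM against 4653 to 4717 CPM), the 4 endothelial markers (150.3 to 165 CPM against 118 to 124 CPM) and the 4 stellate markers (129 to 137 CPM against 86.7 to 103 CPM) were also below those of low glucose in every high-glucose library, with 1, 1 and 2 markers called lower. The 4 macrophage markers summed to 39.2 to 52.3 CPM and 36.5 to 39.3 CPM, where the groups overlapped. The sum of the 3 duct markers went the other way. It was 1054 to 1071 CPM in low glucose and 1149 to 1290 CPM in high glucose. Nearly all of it came from *Spp1*, with a mean of 1050.5 CPM in low glucose and 1202.5 CPM in high glucose. *Spp1* was the 1 called higher (log2FC = 0.19), while *Krt19* (log2FC = -0.12) and *Sox9* (log2FC = -0.14) were not called. The 1 marker of pancreatic polypeptide cells had 4261 to 4606 CPM in low glucose and 4552 to 5039.9 CPM in high glucose. Its groups overlapped and it was not called. The part of these shifts in the results below was not tested.

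Most small-subunit proteins gained footprints in high glucose, relative to the other genes. Of the 32 tested, 26 were higher (81.2%), 1 was lower (*Rps3*) and 5 were not called (*Rps13*, *Rps15*, *Rps16*, *Rps27* and *Rps27l*). Among all genes tested, 12.1% were higher and 10.2% were lower. The median log2FC of the 32 proteins was 0.77, beside -0.01 over all genes tested, and 27 of the 32 lay above the upper quartile of all genes. Of the 26, 20 rose more than 1.5-fold and 8 more than 2-fold. Among all 13100 genes tested, 687 were called higher with more than 1.5-fold and 236 with more than 2-fold. In 29 of the 32 every high-glucose library lay above every low-glucose library, which held for 19.5% of all genes, *Rps3* was separated in the opposite direction, and *Rps13* and *Rps16* overlapped.

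**Figure D1:**
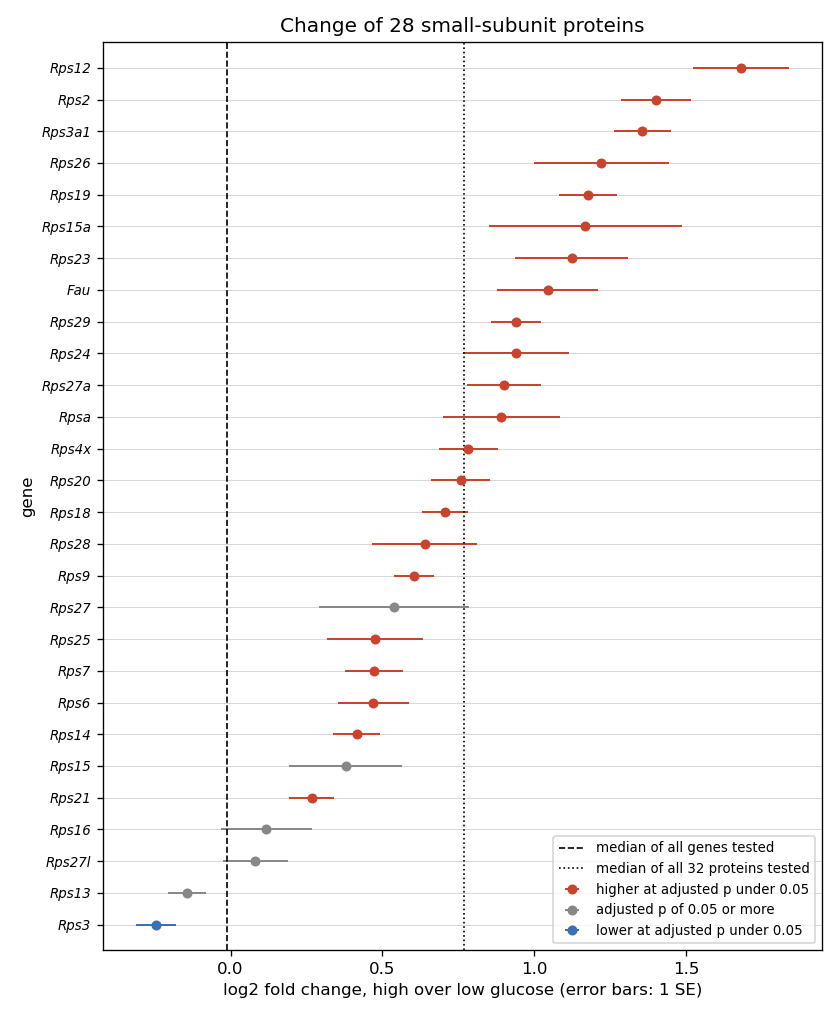
Log2 fold change (x axis, high over low glucose) of 28 of the 32 small-subunit proteins tested (y axis), with error bars of 1 SE. The dashed line is the median of all genes tested and the dotted line that of all 32 proteins, 0.77, and *Rps3* and *Rps13* lie below 0.

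Summed over all 34 genes, footprints came to 3580, 3833 and 3746 CPM in low glucose and to 5407, 5406 and 5389 CPM in high glucose. This was 0.377% ± 0.011 of counts in low glucose and 0.530% ± 0.0029 in high glucose (mean ± SD, n = 3), a ratio of 1.41. *Rps3* and *Rps13* had the most counts of the 34 and together went from 1160, 1177 and 1199.7 CPM to 1056, 1033 and 1019 CPM. The other 32 genes went from 2421, 2656 and 2547 CPM to 4352, 4373 and 4370.1 CPM, a ratio of their shares of 1.66. These 2 genes were also the only tested members with a log2FC below 0, so the ratio without them had to be larger.

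**Figure D2:**
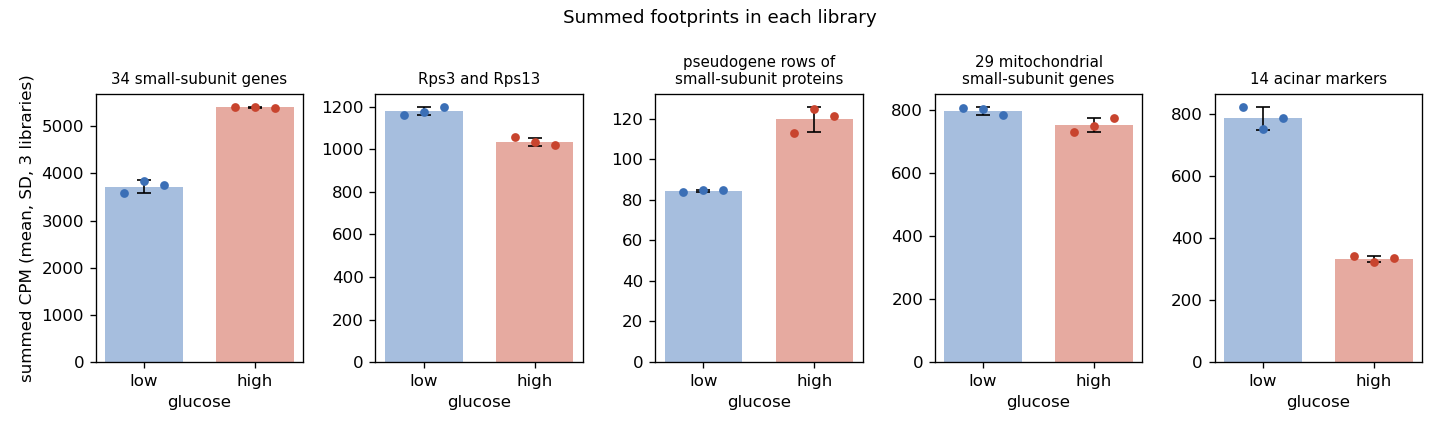
Summed CPM (y axes, each from 0) in low and high glucose for the 34 small-subunit genes, for *Rps3* and *Rps13* within them, for pseudogene rows of small-subunit proteins, for mitochondrial small-subunit genes and for acinar markers. Points are libraries, bars are means and error bars are SD of 3 libraries, and the 34 genes rise while *Rps3* with *Rps13* and the acinar markers fall.

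Because the 5′TOP motif is the sequence these mRNAs are known to share, the letters at the annotated start sites were read from RefSeq (GRCm38.p6), which held 26 of the 34 genes with 31 start sites. A C at the start base followed by at least 4 pyrimidines stood at 25.8% of member start sites, beside 2.5% of all 32851 start sites and 2.29% of those of tested genes. With the tract allowed to begin within 10 bases of the annotated start, on the gene's strand, the shares were 54.8%, 30.7% and 31.6%. Counted by gene, with a match at any of its start sites, 13 of 18 genes called higher had such a tract nearby, and 2 of 6 other tested genes. At the start base itself a tract stood in 5 of 18 genes called higher and in 1 of 6 others. Neither difference was tested. Windows of 30 bases, 15 before the start base and 15 from it on, are given for 10 genes, with the tract nearest the start in capitals. *Rps6*, *Fau*, *Rps18*, *Rps15a*, *Rps12* and *Rps2* were higher, *Rps27*, *Rps13* and *Rps16* were not called, and *Rps3* was lower. The genes shown are not a balanced sample. Every higher gene shown holds a tract, while higher genes without one are named below and not shown.
Rps6: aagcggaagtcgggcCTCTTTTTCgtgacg
Fau: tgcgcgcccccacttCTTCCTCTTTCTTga
Rps18: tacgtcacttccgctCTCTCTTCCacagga
Rps15a: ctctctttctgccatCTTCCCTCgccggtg
Rps12: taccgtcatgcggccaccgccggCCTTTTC
Rps2: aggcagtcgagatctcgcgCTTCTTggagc
Rps27: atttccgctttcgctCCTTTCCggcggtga
Rps13: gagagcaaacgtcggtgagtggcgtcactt
Rps16: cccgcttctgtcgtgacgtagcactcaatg
Rps3: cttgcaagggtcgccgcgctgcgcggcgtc
On the minus strand the windows lay at chr4:86857353-86857382 for *Rps6*, chr17:33955651-33955680 for *Rps18*, chr7:118116133-118116162 for *Rps15a*, chr10:23787195-23787224 for *Rps12*, chr3:90213634-90213663 for *Rps27*, chr7:116334176-116334205 for *Rps13* and chr7:99483695-99483724 for *Rps3*. On the plus strand they lay at chr19:6057932-6057961 for *Fau*, chr17:24720048-24720077 for *Rps2* and chr7:28350674-28350703 for *Rps16*. The tract stood at the start base in *Rps6*, *Fau*, *Rps18*, *Rps15a* and *Rps27*, and 8 and 4 bases after it in *Rps12* and *Rps2*. None lay within 10 bases in *Rps13*, *Rps16* or *Rps3*, nor in *Rps15*, which was not called, nor in *Rps3a1*, *Rps4x*, *Rps25*, *Rps28* and *Rpsa*, which were higher. *Rps27* began with the motif and was not called. *Rps27l*, also not called and not shown, had a tract 1 base after one of its annotated start sites. A missing match says only that these letters are not in the window of the annotated start, which can differ from the start used in islets.

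The letters CCGGAA, searched on both strands of the 300 bases around each start, which can overlap a tract read as TTCCGG, are the core that ETS factors bind. They stood at 51.6% of member start sites, 26.2% of those of tested genes and 14.9% of all. This motif was chosen after the results were known, and 10 of 18 genes called higher held it beside 3 of 6 other tested genes.

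*Rps12*, a head protein with no bacterial counterpart, had the highest log2FC of the members. It had 17.1, 13.6 and 13.6 CPM in low glucose and 41.1, 50.1 and 50.4 CPM in high glucose. The groups were far apart (log2FC = 1.68 ± 0.16 SE, adjusted p = 6.08e-08). *Rps2*, which lines the mRNA entry channel, had 30.3, 31.4 and 36.3 CPM in low glucose and 92.6, 86.1 and 80.8 CPM in high glucose. All 3 high-glucose libraries exceeded all 3 low-glucose libraries (log2FC = 1.40 ± 0.11 SE, adjusted p = 7.27e-09).

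*Rps3a1*, a body protein that reaches the mRNA exit side, combined a large change with a high count. It had 79.2, 105 and 89.8 CPM in low glucose and 241, 245 and 215 CPM in high glucose, with no overlap (log2FC = 1.36 ± 0.093 SE, adjusted p = 4.09e-10). *Rps26*, which contacts the mRNA just upstream of the start codon and is mutated in Diamond-Blackfan anaemia in humans, had 11.7, 9.52 and 9.42 CPM in low glucose and 25.2, 29.2 and 16.8 CPM in high glucose. Replicate 3 in high glucose was the lowest of its group but still above the low-glucose libraries (log2FC = 1.22 ± 0.22 SE, adjusted p = 0.000272).

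*Rps19*, the head protein most often mutated in Diamond-Blackfan anaemia, had 97.7, 138 and 128 CPM in low glucose and 264, 289.6 and 271 CPM in high glucose. The groups did not overlap, and replicate 1 was the lowest in low glucose (log2FC = 1.18 ± 0.10 SE, adjusted p = 6.45e-09). *Rps15a*, a body protein, had 5.41, 2.66 and 7.96 CPM in low glucose and 10.9, 13.1 and 12.1 CPM in high glucose. Relative to their mean its low-glucose libraries differed widely, with replicate 2 the lowest, and the change was called with a wide error (log2FC = 1.17 ± 0.32 SE, adjusted p = 0.0098). At 819 counts in all, *Rps15a* was the least counted member called.

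*Rps23*, which sits at the decoding centre, had 13.4, 21.0 and 13.4 CPM in low glucose and 38.0, 35.4 and 31.0 CPM in high glucose. Replicate 2 was the high library of low glucose, and the groups stayed apart (log2FC = 1.12 ± 0.19 SE, adjusted p = 0.000105). *Fau*, which encodes a ubiquitin-like protein fused to the small-subunit protein eS30, had 13.99, 21.0 and 19.7 CPM in low glucose and 37.3, 37.9 and 38.0 CPM in high glucose. Its 3 high-glucose libraries were almost equal and all above low glucose (log2FC = 1.04 ± 0.17 SE, adjusted p = 6.54e-05).

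**Figure D3:**
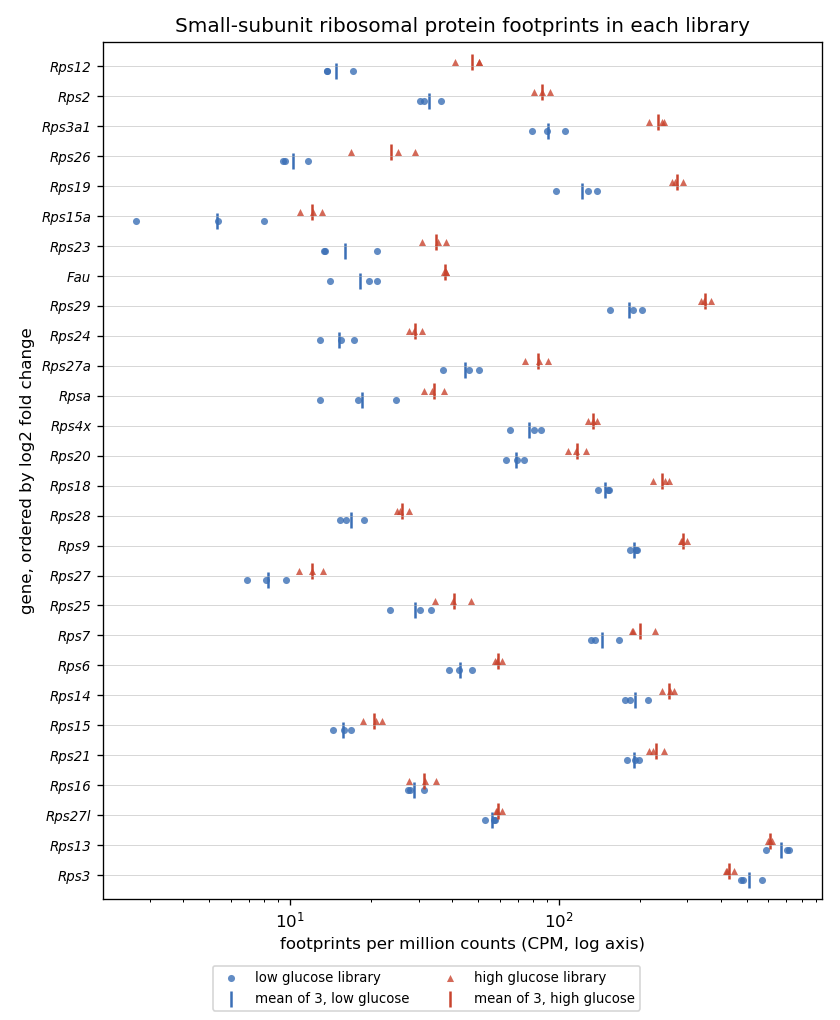
CPM of 28 of the 32 tested small-subunit proteins (rows, ordered by log2 fold change) in each library on a log axis, circles for low and triangles for high glucose, with vertical marks at the mean of 3. The groups lie apart in every row except *Rps16* and *Rps13*, and *Rps3* is the row where every low-glucose library lies above every high-glucose library.

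The fusion gene *Rps27a* supplies ubiquitin as well as a head protein of the small subunit. It had 36.9, 46.1 and 50.4 CPM in low glucose and 84.0, 90.8 and 74.8 CPM in high glucose, without overlap (log2FC = 0.90 ± 0.12 SE, adjusted p = 8.53e-06). *Rpsa*, named laminin receptor for a role outside the ribosome and found on the mRNA exit side, had 24.8, 17.8 and 12.9 CPM in low glucose and 37.4, 31.5 and 33.5 CPM in high glucose. Its low-glucose libraries spread widely, with replicate 1 the highest, and all lay below high glucose (log2FC = 0.89 ± 0.19 SE, adjusted p = 0.00164). *Rps6*, the body protein phosphorylated by S6 kinases downstream of mTORC1, had 38.8, 47.3 and 42.4 CPM in low glucose and 58.8, 61.4 and 57.8 CPM in high glucose. It rose less than the median member, and its groups did not overlap (log2FC = 0.47 ± 0.12 SE, adjusted p = 0.00508).

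The decrease in *Rps3*, a head protein at the mRNA entry, was small. It had 569.9, 475 and 482 CPM in low glucose and 448, 417 and 422 CPM in high glucose. The lowest low-glucose library lay above the highest high-glucose library (log2FC = -0.25 ± 0.066 SE, adjusted p = 0.00911). The call was lost without replicate 2 (adjusted p = 0.069) or replicate 3 (adjusted p = 0.051) of high glucose. *Rps13*, a body protein and the most counted member, had 589.6, 702 and 718 CPM in low glucose and 608, 616 and 596 CPM in high glucose. Replicate 1 of low glucose lay below all high-glucose libraries, so the groups overlapped (log2FC = -0.14 ± 0.063 SE, adjusted p = 0.112). Without that library *Rps13* was lower (log2FC = -0.23, adjusted p = 0.000301), and it was also called lower with library totals, with upper-quartile factors and with limma-voom.

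*Rps16*, whose tail reaches the tRNA in the P site, had 27.4, 31.4 and 27.9 CPM in low glucose and 27.7, 34.7 and 31.6 CPM in high glucose. The groups overlapped and the log2FC was within 1 SE of 0 (log2FC = 0.12 ± 0.15 SE, adjusted p = 0.646). *Rps15*, a head protein near the decoding centre, had a log2FC of 0.38 ± 0.19 (adjusted p = 0.157), with all high-glucose libraries above low glucose. A p above the threshold does not show that these proteins stayed the same.

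In the other members called higher, all high-glucose libraries also lay above all low-glucose libraries. From the head, *Rps28* (log2FC = 0.64) borders the mRNA exit. *Rps29* (log2FC = 0.94), *Rps20* (log2FC = 0.76), *Rps18* (log2FC = 0.71) and *Rps25* (log2FC = 0.48) are also head proteins, and *Rps20* is ubiquitinated in human cells when ribosomes stall. From the body, *Rps24* (log2FC = 0.94), *Rps7* (log2FC = 0.47) and *Rps21* (log2FC = 0.27) were higher, as was *Rps9* at the mRNA entry (log2FC = 0.60). *Rps14* on the platform, lost in the human 5q- syndrome, had a log2FC of 0.42 and *Rps4x* a log2FC of 0.78. The adjusted p of those named here ran from 1.99e-08 (*Rps29*) to 0.032 (*Rps25*). *Rps25* lost its call in 4 of the 6 fits without a library, as well as with library totals and with upper-quartile factors, at adjusted p from 0.053 to 0.183. *Rps21* lost it without replicate 3 of low glucose (adjusted p = 0.067) or replicate 1 of high glucose (adjusted p = 0.089).

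By place in the subunit, 10 of 13 tested head proteins were higher and 1 lower (median log2FC = 0.76), and 16 of 18 body proteins were higher, with *Rps13* and *Rps27* not called (median log2FC = 0.79). Of the 5 proteins listed for the mRNA exit, 5 were higher (median log2FC = 0.89), a list that did not hold *Rps3a1*. At the entry 3 of 4 were higher and *Rps3* lower. Of the 3 tested proteins ubiquitinated at stalled ribosomes, *Rps2* and *Rps20* were higher and *Rps3* lower. Of the 9 tested genes of human Diamond-Blackfan anaemia, 8 were higher (median log2FC = 0.94), and 11 of 15 proteins with a bacterial counterpart were higher (median log2FC = 0.71). Among all 32 tested members 26 were higher (81.2%), and among all genes tested 12.1%. The groups above share members and were described without a test.

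Among the paralogs, *Rps27l* was not called and *Rps4l* was higher. *Rps27l*, a p53 target close in sequence to *Rps27*, had 53.0, 57.5 and 57.8 CPM in low glucose and 58.2, 61.2 and 58.8 CPM in high glucose, narrowly without overlap (log2FC = 0.08 ± 0.11 SE, adjusted p = 0.655). *Rps27* itself had 6.89, 8.15 and 9.67 CPM in low glucose and 13.2, 11.99 and 10.8 CPM in high glucose, also without overlap (log2FC = 0.54 ± 0.25 SE, adjusted p = 0.128), and the difference between them was not tested. *Rps27rt*, a retrotransposed copy, had 0 counts in all 6 libraries, which allows up to 0.145 to 0.325 CPM per library. This limit covers counting error only, not footprints that fit another gene equally and cannot be assigned. *Rps4x*, on the X chromosome, had 65.6, 85.3 and 80.8 CPM in low glucose and 138, 128 and 134 CPM in high glucose (log2FC = 0.78 ± 0.10 SE, adjusted p = 2.97e-06). *Rps4l* had 17.2, 20.8 and 20.1 CPM in low glucose and 30.5, 35.6 and 28.5 CPM in high glucose (log2FC = 0.70 ± 0.16 SE, adjusted p = 0.00316), higher like *Rps4x*. Footprints that fit *Rps4x* and *Rps4l* equally cannot be assigned, and 21.5% of the counts of rows described as this protein lay in pseudogene rows, *Rps4l* among them.

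*Rps10*, a head protein that is ubiquitinated at stalled ribosomes in human cells, was hardly counted. It had 4, 7 and 9 counts in low glucose and 0, 13 and 0 in high glucose, with no order between the groups. A read-through gene model that also holds *Rps10* lies over it and had 0 counts, and pseudogene rows of the protein had 83 counts, more than the 33 of the gene. The part of either in this low count was not tested.

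Many rows of the table are pseudogenes of these proteins, from 2 to 140 for a protein. In all, 815 such rows were found, of which 396 were at 0. They summed to 83.7, 84.7 and 84.8 CPM in low glucose and to 113, 125 and 121 CPM in high glucose, without overlap. Adding the pseudogene rows to each gene left 26 members higher and 1 lower (median log2FC = 0.75). How reads that fit several rows were counted is not given. Adding rows does not cover footprints that were counted in none of them. The share of a protein's counts in pseudogene rows was 21.4% for *Rps15a*, 13.2% for *Rps23*, 11.4% for *Rpsa* and 10.1% for *Rps26*. Rows of snoRNAs overlap 10 members, and 19 of those 20 rows were at 0.

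Levels of the members differed widely. Per kilobase of the deposited gene length, which is not the coding length, the mean over 6 libraries was 383 CPM for *Rps29*, 258 for *Rps21* and 237 for *Rps13*, against 3.55 for *Rps24* and 1.39 for *Rps15a*. *Rps24* (6256 bases) and *Rps15a* (6270 bases) had the longest deposited lengths of the members, which lowers their values per kilobase. Across the 32 tested members the log2FC had a Spearman's rho of -0.21 with total counts, 0.10 with gene length and 0.33 with the share in pseudogene rows. These are descriptions over genes of the same 6 libraries, with no p. The 16 members with more counts had a median log2FC of 0.73 and the 16 with fewer one of 0.90.

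Most large-subunit cytosolic proteins were higher too. Of 48 tested, 31 were higher (64.6%, median log2FC = 0.61) and 17 were not called. Of 29 mitochondrial small-subunit proteins, 1 was higher (3.4%) and 3 were lower (median log2FC = -0.06), beside 12.1% higher and 10.2% lower among all genes tested. The differences between these families were not tested. *Rack1*, a scaffold that binds the head of the small subunit, had 552, 508 and 508 CPM in low glucose and 1134, 1184 and 1214 CPM in high glucose, with no overlap (log2FC = 1.17 ± 0.051 SE, adjusted p = 1.94e-13).

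**Figure D4:**
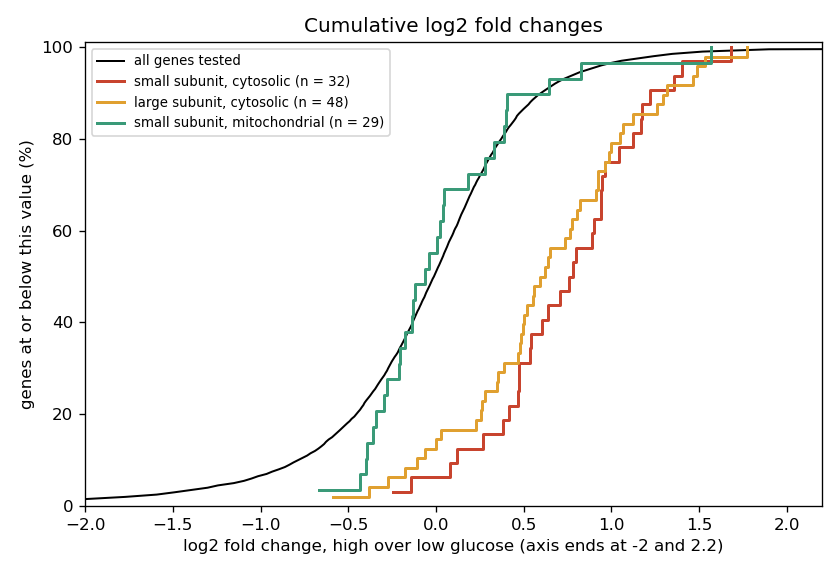
Share of genes (y axis, %) at or below each log2 fold change (x axis, high over low glucose) for the 32 small-subunit, 48 large-subunit and 29 mitochondrial small-subunit proteins tested and for all 13100 genes. Both cytosolic curves lie to the right of all genes, and the mitochondrial curve lies close to it, with medians of 0.77, 0.61, -0.06 and -0.01.

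Genes that build or modify the small subunit were called at shares not far from those of all genes tested, of which 12.1% were higher and 10.2% lower. Of 51 assembly factors, 8 were higher (15.7%) and 6 lower (median log2FC = -0.0019). Those with the smallest adjusted p were the processome protein *Dcaf13* (log2FC = 0.66, adjusted p = 7.91e-06) and the rRNA methyltransferase *Emg1* (log2FC = 0.43, adjusted p = 0.00183), both higher, and the kinase *Riok3* (log2FC = -0.41, adjusted p = 0.000524) and the helicase *Dhx37* (log2FC = -0.59, adjusted p = 0.00149), both lower. Of 18 tested chaperones and modifiers, 3 were higher (16.7%) and 1 lower (median log2FC = 0.13). They included the deubiquitinase *Usp10* (log2FC = 0.73, adjusted p = 6.98e-05) and the ubiquitin ligase *Zfp598* (log2FC = 0.70, adjusted p = 0.000197), which act on small-subunit proteins of stalled ribosomes, while *Pdcd2l* was lower (log2FC = -0.57, adjusted p = 0.000838).

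Of 14 tested regulators of 5′TOP mRNAs and of mTORC1, 2 were higher (14.3%) and 4 lower (median log2FC = 0.12), beside the 12.1% and 10.2% of all genes. *Larp4* (log2FC = 0.39, adjusted p = 0.000755) and the mTORC1 inhibitor *Tsc2* (log2FC = 0.44, adjusted p = 0.00407) were higher, and the cap-binding factor *Eif4e* (log2FC = -0.62, adjusted p = 0.00252) and its repressor *Eif4ebp1* (log2FC = -1.09, adjusted p = 0.000159) were lower. *Larp1*, which binds the 5′TOP motif, was not called (log2FC = 0.35, adjusted p = 0.0701). Of 26 tested initiation factors that bind the small subunit, 7 were higher (26.9%) and 5 lower (median log2FC = 0.10). The eIF3 subunits *Eif3f* (log2FC = 0.99, adjusted p = 5.86e-08) and *Eif3h* (log2FC = 0.62, adjusted p = 1.65e-06) were higher, and *Eif5* (log2FC = -1.50, adjusted p = 9.26e-13), which promotes GTP hydrolysis by eIF2, and *Eif3i* (log2FC = -0.40, adjusted p = 0.000459) were lower.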

How the data were processed

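Per the labels and the study's methods, the authors removed rRNA and tRNA reads, aligned what was left in TopHat2 (version 2.0.12), and obtained gene counts from HTSeq (version 0.9.1). The values used here are those deposited counts, whole numbers with no depth scaling, and the deposited gene length is in bases. How reads that map to several places were treated in the count table, and whether strand was used, is not given in the sources used here, although the methods name uniquely mapped reads for footprint profiles along genes. The line with no gene (1 of 56748) was left out. The submitters name mm10, but positions in the table are not on it, so none was used.

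All 6 libraries entered a fit of condition in edgeR (version 4.0.16, R version 4.3.3) with filterByExpr by condition, TMM factors (0.980 to 1.02) and the quasi-likelihood F test (degrees of freedom: 17.6 prior, 4 residual). Benjamini-Hochberg adjustment was over all 13100 genes. Replicates correlated with a Spearman's rho of 0.974 to 0.983 over tested genes, and no library was a copy of another. The code was tested on simulated counts. The replicates are pools of mice, 3 per condition, a number that limits the precision. Alternatives used DESeq2 (version 1.42.0), limma (version 3.58.1), other scalings and filters, a replicate block and each library left out. Merging all pseudogene rows, a robust fit and libraries thinned to 9242549 counts are alternatives chosen after seeing the data. Counts of 0 were given a limit of 3 counts per library, which covers counting error only.

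The members and gene lists were chosen with earlier results of these data known. Values in every library are given for the 8 largest log2FC among called members, the 4 smallest among those tested, members called lower or under the filter, the paralogs with *Rps4x* and *Rps27*, and *Rpsa*, *Rps6*, *Rps27a*, *Fau* and *Rack1*. A few members are counted in the totals, but their own values are not reported here. In each list of other genes, the 2 higher and the 2 lower genes with the smallest adjusted p are named. *Amy2a5*, *Mafa*, *Iapp*, *Spp1*, *Krt19*, *Sox9*, *Larp1* and *Rps15* were named outside this rule after their values were seen. Python (version 3.11.15) with matplotlib (version 3.10.9) made the plots.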

Additional observations from a re-analysis of the deposited data

How the results depend on the processing

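Over 19 alternatives the small-subunit proteins called higher numbered 24 to 26, against 26 as reported, and 24 of the 26 were called higher under every alternative, the exceptions being *Rps21* and *Rps25*. The proteins called lower numbered 2 with upper-quartile factors, 2 with library totals only and 2 with limma-voom, where *Rps13* joined *Rps3*, and from 0 to 2 when each library was left out. The median log2FC ran from 0.71 to 0.82 without a library and was 0.72 with library totals. Of 608 values of single members under an alternative, 594 kept their direction and their side of the threshold, 10 lost the call, 4 gained it and 0 changed sign. With the replicate number as a block, 26 were higher and 1 lower, as without it, and no call of a member changed. Same-numbered libraries of both conditions deviated together with correlations of 0.007, 0.007 and 0.011 only, so the numbers were not taken as pairs, although each of the 6 libraries correlated best with the one of its own number. The methods describe independent experiments in which the islets of each mouse were divided over both conditions, which pairs the conditions by experiment, but do not say that a replicate number marks an experiment, so the match of numbers is a hint from the data. *Rps10*, with 33 counts in all, was too thinly counted to be tested, and *Rps27*, with 911, had a wide error (log2FC = 0.54 ± 0.25 SE). High glucose had the deeper libraries, with 26 higher and 1 lower after thinning to equal totals.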
